A study of Mus musculus with 12 samples.

Results

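The comparison set c-Kit(+) cells taken from mouse hearts 1 day after myocardial infarction (MI) against c-Kit(+) cells taken before MI. It used 5 of the 12 libraries of the series, namely day 1 post-MI (n = 2) and pre-MI (n = 3), and the 3740 of 15223 listed genes whose mean over those 5 libraries was at least 10 normalized counts. Both groups came from C57BL/6 c-KitCreERT2/mTeG mice, aged 8 weeks, that had received tamoxifen at 0.5 mg a day by intraperitoneal injection for 14 days. In these mice a tamoxifen-dependent Cre marks cells that use the c-Kit gene, and their descendants, with eGFP. Marked cells are therefore cells with a history of c-Kit use, whatever their state at collection. Pre-MI cells were collected 1 day before MI. Labels name day 1 as a vehicle group, yet vehicle or Sfrp2 was given only 2 days after MI. The other 7 libraries, 6 from day 12 and 1 from cardiomyocytes of sham mice, are used below only for levels set side by side.

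Kit encodes the receptor for stem cell factor and is found on mast cells, blood progenitors and part of the endothelium. Within a day of an infarct, damaged tissue sends out chemokines that draw neutrophils and then monocytes into the heart, and complement and adhesion receptors let these cells bind and engulf dead muscle. Macrophages that arrive early make osteopontin, encoded by Spp1, and release cytokines of the interleukin-1 family. The tissue around them consists mainly of cardiomyocytes, which carry sarcomere, calcium pump and energy genes, and of capillary endothelium resting on a collagen IV basement membrane.

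The promoters of 3 genes that had no or nearly no reads before MI are shown, because chemokine and osteopontin genes led the rises described below. Each line gives the 150 bases before the annotated start, 5′ to 3′ on the gene's own strand, from RefSeq on GRCm38.p6. Capitals mark matches, on either strand, to TGANTCA (the motif of AP-1), a form of the NF-kB motif (GGG, any 2 bases, TTTCC) and GAGGAAGT (a form of the PU.1 motif).
Cxcl2 at chr5:90903749-90903898, plus strand: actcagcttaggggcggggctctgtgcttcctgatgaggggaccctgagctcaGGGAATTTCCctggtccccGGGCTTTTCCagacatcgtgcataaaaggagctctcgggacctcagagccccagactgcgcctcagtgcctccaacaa
Ccl9 at chr11:83578637-83578786, minus strand: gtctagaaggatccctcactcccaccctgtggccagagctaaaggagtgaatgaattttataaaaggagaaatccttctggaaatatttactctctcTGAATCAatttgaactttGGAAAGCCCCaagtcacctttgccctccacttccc
Spp1 at chr5:104434961-104435110, plus strand: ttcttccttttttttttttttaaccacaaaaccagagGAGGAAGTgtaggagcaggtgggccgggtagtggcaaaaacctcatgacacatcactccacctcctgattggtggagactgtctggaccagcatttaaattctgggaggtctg
The Cxcl2 window held the NF-kB form at positions -97 and -78 from the start. The Ccl9 window held the AP-1 motif at -53 and the NF-kB form, on the opposite strand, at -35. In the Spp1 window the PU.1 form lay at -113, and a further annotated Spp1 start had no match. No match lay in the windows of C3, Ccl6, Itgam or Il1b. Over windows of 300 bases around the starts of all 27025 genes in the promoter table, 8.97% held the AP-1 motif, 1.89% the NF-kB form and 3.69% the PU.1 form. Only 102 of the 159 genes called higher, and 2816 of the 3740 tested, had a promoter in that table. Motif shares of rises and other genes are not compared here.

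The libraries differed in ways that bear on every value below. The pre-MI libraries held 3462396 to 3570993 reads and the day 1 libraries 2085161 and 1793826, counted over listed genes. Both mitochondrial rRNAs took 82.6% to 86.7% of reads before MI, and 72.6% and 75.1% at day 1. Outside mitochondrial genes 189984, 97858 and 181182 reads remained in pre-MI replicates 1 to 3, and 306355 and 207114 in day 1 replicates 1 and 2. Reads of 102 odorant, pheromone and taste receptor genes, which heart is not expected to use, numbered 7, 6 and 10 before MI and 158 and 321 at day 1. Genes at 0 made up 33.9% to 42.1% of the listed genes before MI but 4.64% and 7.67% at day 1. Libraries of one group correlated more closely (r across genes of 0.819 to 0.881) than libraries of different groups (0.550 to 0.688). The labels give no sex, and the X-inactivation transcript Xist stood at 2202, 1.79 and 544 normalized counts before MI and at 17.7 and 13.8 at day 1. The pre-MI libraries thus differ from each other in this respect, and the Y-linked gene Eif2s3y was called higher at day 1 (22.6 and 28.7 against 8.52, 10.8 and 4.54). The groups overlapped in the Y-linked genes Ddx3y (8.87 and 8.03 against 6.62, 21.5 and 9.09), Uty (5.65 and 5.74 against 3.78, 8.96 and 4.54) and Kdm5d (9.68 and 18.4 against 1.89, 8.96 and 11.4). These sex-linked genes were picked after their values were seen. Whether replicates are separate animals is not stated in the labels, so the spread behind each p-value is that of libraries and may be technical.

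At day 1, 592 of the 3740 genes tested (15.8%) passed limma's test at an adjusted p of 0.05. Of these, 159 (4.25%) were higher and 433 (11.6%) were lower than before MI. In all 159 rises and in 432 of the 433 falls the libraries of the groups did not overlap. Over all tested genes both day 1 libraries lay above all pre-MI libraries for 486 (13.0%) and below them for 1247 (33.3%). The balance of rises and falls depended on the scaling. The median gene fell by 0.31 on the log2 scale with the authors' size factors, and a TMM scaling, which moved that median to 0.02, gave 224 rises (5.99%) and 216 falls (5.78%). With the median made equal in every library there were 189 rises (5.05%) and 273 falls (7.3%). All 159 rises but only 216 of the 433 falls were called under both of these scalings. On recovered reads edgeR called 268 rises (7.17%) and 207 falls (5.53%), and DESeq2 165 rises (4.41%) and 105 falls (2.81%). Without the filter on low values, 3235 of 15223 genes (21.3%) were called higher and 403 (2.65%) lower. Most calls needed both day 1 libraries: without day 1 replicate 2 only 32 rises and 43 falls passed, and without day 1 replicate 1 there were 86 and 230. Of the rises 25, and of the falls 40, were called whichever library was left out.

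**Figure D1:**
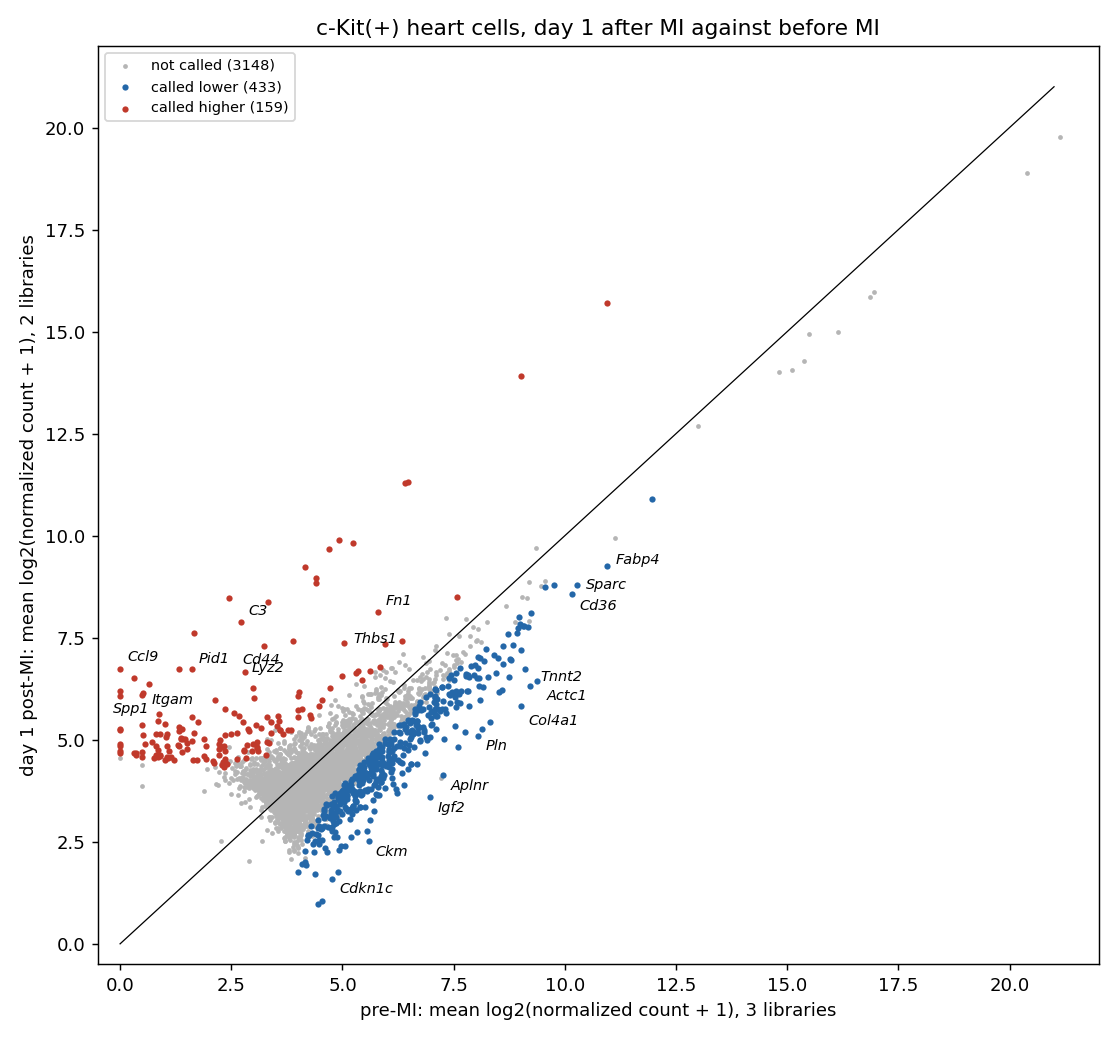
Mean log2(normalized count + 1) of each of the 3740 tested genes before MI (horizontal axis, 3 libraries) and at day 1 (vertical axis, 2 libraries), with the line of equality. Rises (159, red) start mostly from low levels before MI, and falls (433, blue) include abundant endothelial and muscle genes such as Fabp4, Sparc and Actc1.

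**Figure D2:**
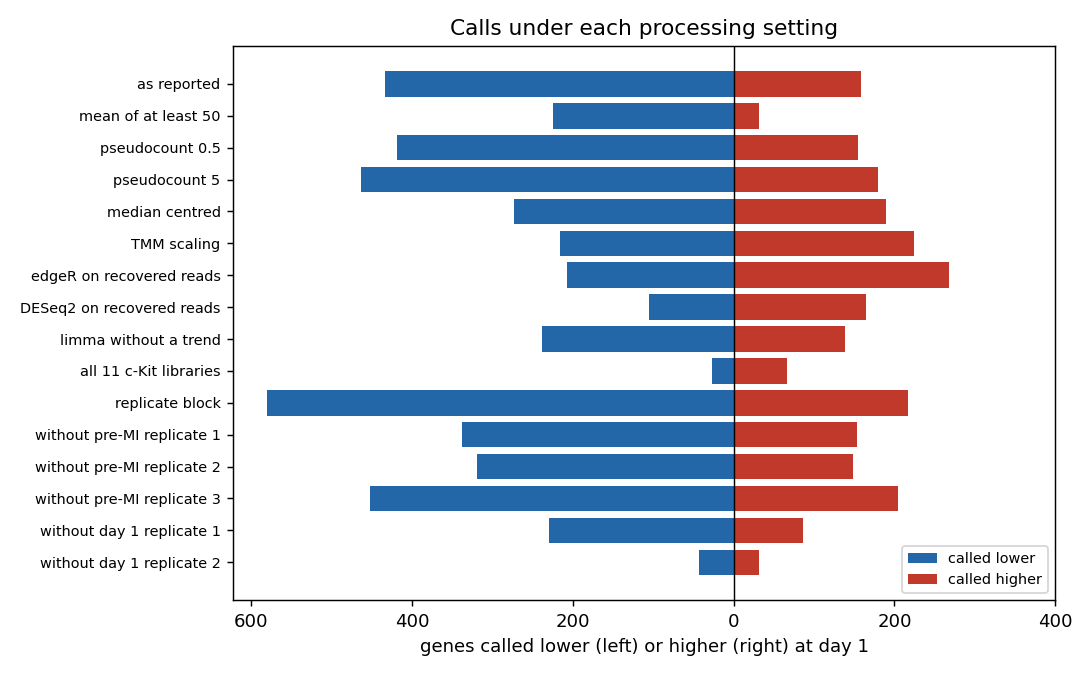
Number of genes called lower (left, blue) and higher (right, red) at day 1 under each processing setting; the setting without a filter on low values is left out because its 3235 rises exceed the axis. The falls shrink from 433 to 216 under TMM scaling, the smallest count of falls is 27, when all 11 c-Kit libraries share the variance, and the smallest count of rises is 31, when the minimum mean is 50.

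Chemokine genes with no or few reads before MI were among the largest rises at day 1. Ccl9, a CC chemokine that acts on myeloid cells, stood at 111 and 101 normalized counts in the day 1 libraries and at 0 in all 3 pre-MI libraries. Its day 1 mean of 106 ± 7.28 (SD, n = 2) was at least 19.7-fold above what 3 reads were worth in the pre-MI library with the fewest reads outside mitochondria, with a limma log2 difference of 6.74 (SE 0.781, adjusted p = 5.64e-05). Its neighbour Ccl6, another CC chemokine of mouse myeloid cells, stood at 71 and 62 at day 1 and again at 0 before MI, at least 12.4-fold higher. Both genes lie on the minus strand of chromosome 11 with a gap of 9.25 kb (GENCODE annotation of GRCm38). Cxcl2, a chemokine that attracts neutrophils, reached 145 and 45.9 against 2.84, 0 and 0 and rose by 5.72, with day 1 replicate 1 far above replicate 2. Ccl2, the main attractant of monocytes through the receptor Ccr2, stood at 56.5 and 42.5 against 1.89, 0 and 1.14 (log2 difference 4.77). Ccl7, which acts on the same receptor and lies 8.26 kb from Ccl2, stood at 59.7 and 31 against 0, 1.79 and 1.14 (4.60). In each of these 5 genes every day 1 library was above every pre-MI library. The stromal chemokine Cxcl12, which holds CXCR4-bearing cells in place, moved the other way, at 269 and 181 against 691, 475 and 454, and fell by 1.26 (adjusted p = 0.00602).

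Of the 21 chemokine genes among the listed genes, 8 were tested, and 5 rose and 1 fell, with a median log2 difference of 4.68 against -0.31 for all genes tested. A gene with no reads before MI can pass the filter on the mean only by being high at day 1, so counts of rises over tested members describe these members and not the family. The platelet chemokines Pf4 (22.6 and 24.1 against 5.68, 7.17 and 20.4) and Ppbp (37.9 and 49.4 against 41.6, 39.4 and 42) did not pass the test. The 13 untested chemokine genes stayed below the filter, among them Ccl3, Ccl4, Cxcl1 and Cxcl10. Without day 1 replicate 2 the same number of chemokine rises (5) passed, and the fall of Cxcl12 did not. The receptor Ccr2 went from 0 before MI to 47.6 and 29.8 (log2 difference 5.27, adjusted p = 0.00747), at least 7.2-fold higher. Per kilobase of exon its level did not exceed that of the top of the sensory receptor genes in both day 1 libraries, unlike the levels of the chemokines. Cxcr4 (16.9 and 8.03 against 11.4, 7.17 and 22.7) did not pass.

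**Figure D3:**
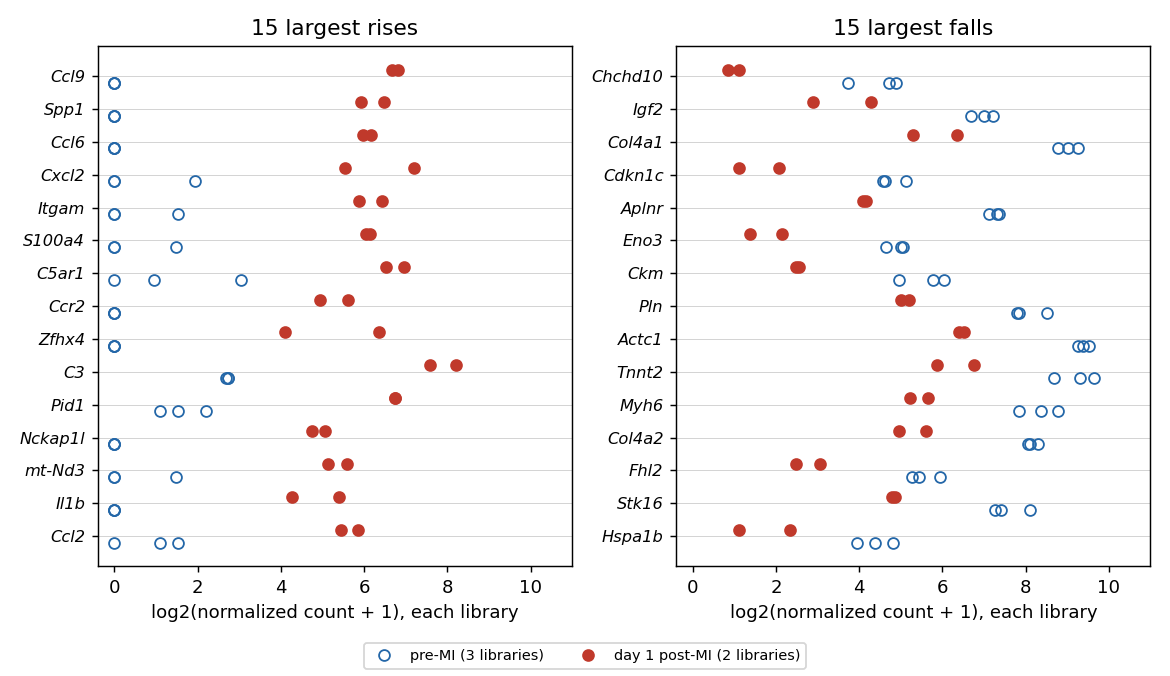
Log2(normalized count + 1) in each library for the 15 largest rises (left) and the 15 largest falls (right) among called genes without predicted symbols; open blue circles are pre-MI libraries and filled red circles day 1 libraries. In all 30 genes the groups do not overlap, and 7 of the 15 rises have no reads in any pre-MI library.

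Among matricellular, protease and inhibitor genes 6 of 12 tested rose, 2 fell and 4 were not called. Spp1, encoding osteopontin, a secreted adhesion protein made by macrophages in injured hearts, stood at 87.9 and 59.7 at day 1 and at 0 before MI, at least 13.7-fold higher (log2 difference 6.20, SE 0.912). Cd44, a receptor for hyaluronan that also binds osteopontin, stood at 147 and 165 against 15.1, 3.59 and 10.2 and rose by 4.06, a 16.2-fold difference of means; this call was lost without day 1 replicate 2. Fibronectin, Fn1, stood at 415 and 188 against 46.4, 48.4 and 72.7 and Thbs1, the adhesive glycoprotein thrombospondin, at 255 and 106 against 28.4, 34.1 and 32.9; they rose by 2.33 and 2.34. In both, day 1 replicate 1 was well above replicate 2, and both day 1 values were above all 3 pre-MI values. Vcan, the proteoglycan versican, rose by 2.90 (57.3 and 37.9 against 3.78, 7.17 and 5.68), but per exon length it did not exceed the sensory receptor level in every day 1 library. Timp1, an inhibitor of matrix metalloproteinases, was at 20.2 and 29.8 against 0 before MI, at least 4.65-fold higher, a call lost without pre-MI replicate 1. Spp1, Cd44, Vcan and Timp1 passed the filter only through their day 1 values, so the count of rises describes these members and not the family. The list held 32 genes, and without day 1 replicate 2 there were 4 rises and 1 fall; of all genes tested 4.25% rose and 11.6% fell. The falls were Sparc (403 and 487 against 1292, 1049 and 1401, log2 difference -1.48), a collagen-binding protein that endothelium makes in quantity, and the protease Adamts1 (23.4 and 16.1 against 59.6, 53.8 and 73.8). Timp3 (262 and 181 against 239, 195 and 316) and Timp2 (17.7 and 41.3 against 12.3, 17.9 and 26.1) did not pass.

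Complement genes included the gene with the smallest adjusted p of all those tested. This was C3, the central protein of the cascade, which stood at 189.5 and 294 against 5.68, 5.38 and 5.68, a 43.3-fold difference of means (242 ± 73.7 against 5.58 ± 0.173, SD, n = 2 and 3). Its log2 difference was 5.17 with an SE of 0.35 and an adjusted p of 8.20e-07. C5ar1, the receptor of phagocytes for the fragment released from C5, rose from 0.946, 7.17 and 0 to 124 and 90.7 (log2 difference 5.41). The alpha chain of complement receptor type 3, Itgam, stood at 85.5 and 57.4 against 1.89, 0 and 0 (5.64), and its partner Itgb2 at 21.8 and 24.1 against 2.84, 1.79 and 0 (3.44). Serping1, the inhibitor of the first complement component, rose by 2.53 (25.8 and 28.7 against 5.68, 7.17 and 1.14). Of 22 listed complement genes 6 were tested, each only through its day 1 values, and the 5 named here rose, where 4.25% of all genes tested did; without day 1 replicate 2 only 2 passed, and without replicate 1 there were 4. The summed level of all 22 was 579.9 and 666 at day 1 against 54.9, 43 and 30.7 before MI.

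Genes of monocytes and macrophages were higher at day 1 than before MI. Of 35 listed markers, 14 passed the filter, all but Plek only through their day 1 values, and 13 rose, where 4.25% of all genes tested did, with a median log2 difference of 3.60; 13 also rose under TMM scaling, and 6 passed without day 1 replicate 2. Lyz2, the lysozyme of phagocytes, stood at 127 and 78 against 9.46, 8.96 and 2.27 and rose by 3.85 (adjusted p = 0.000147). Its call was lost when either day 1 library was left out. Laptm5, a lysosomal protein of blood cells, stood at 38.7 and 45.9 against 2.84, 3.59 and 1.14 (3.69) and the Fc receptor gamma chain, Fcer1g, at 38.7 and 24.1 against 3.78, 1.79 and 1.14 (3.37). The tetraspanin Cd53 was at 45.2 and 26.4 against 0.946, 3.59 and 0 and the pan-leukocyte phosphatase Ptprc at 29 and 16.1 against 1.89, 1.79 and 3.41. Mrc1, the mannose receptor, was at 45.2 and 17.2 against 4.73, 3.59 and 1.14, the scavenger receptor Msr1 at 40.3 and 14.9 against 0, 0 and 1.14, and Csf2ra, a receptor chain for granulocyte-macrophage colony-stimulating factor, at 33.1 and 17.2 against 0, 0 and 1.14. Every called member had both day 1 values above all pre-MI values, and day 1 replicate 1 was the higher one in all but Laptm5 and Itgb2. The efferocytosis receptor Mertk (14.5 and 18.4 against 6.62, 12.5 and 4.54) did not pass. Nckap1l, a blood-cell subunit of the complex that drives actin branching, rose from 0 to 25.8 and 32.1, and S100a4 and Pid1 are described below.

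The 21 untested markers had a mean below 10 but were seen at day 1. Without the filter the median log2 difference of all listed genes was 0.70, against -0.31 with it, so low genes were often higher at day 1. Not every untested marker was higher: Cx3cr1 stood at 3.23 and 1.15 against 3.78, 1.79 and 2.27. Cd14 stood at 18.5 and 18.4 against 0, 0 and 0, Tyrobp at 17.7 and 25.2 against 0, 1.79 and 1.14, Cybb at 22.6 and 21.8 against 0.946, 1.79 and 1.14, Csf1r at 18.5 and 9.18 against 1.89, 5.38 and 6.82 and Cd68 at 14.5 and 8.03 against 2.84, 1.79 and 0. Summed over all 35 markers, the level was 876 and 609 at day 1 and 74.7, 61 and 39.8 before MI. Of the 35, 12 had no reads in any pre-MI library. Zeros before MI were common in general, since 33.9% to 42.1% of all listed genes were at 0 in single pre-MI libraries. In bulk RNA more cells of a type and more RNA per cell cannot be told apart, nor can fewer cells and less RNA, and this holds for every list here.

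Markers of neutrophils, lymphocytes and mast cells were low in all 5 libraries. None of 9 listed neutrophil genes passed the filter; their summed level was 47.6 and 66.6 at day 1 against 0.946, 0 and 1.14 before MI, with S100a8 at 1.61 and 4.59 and S100a9 at 4.84 and 12.6. Lymphocyte markers summed to 81.5 and 83.8 against 10.4, 21.5 and 25, and of 16 only Cd74, the chaperone of MHC class II, was tested and rose (41.1 and 11.5 against 0.946, 1.79 and 9.09); leaving out either day 1 library, or pre-MI replicate 1 or 2, ended that call. The summed level of the 102 sensory receptor genes moved likewise, 127 and 368 against 6.62, 10.8 and 11.4, and its part in these sums was not tested. The 5 listed mast cell genes, Kit among them, summed to 22.6 and 35.6 against 36.9, 14.3 and 42. Erythroid genes, mostly globins, varied between libraries of one group, with sums of 5256 and 870.0 against 3125, 2026 and 11838, and none of 6 tested passed.

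**Figure D4:**
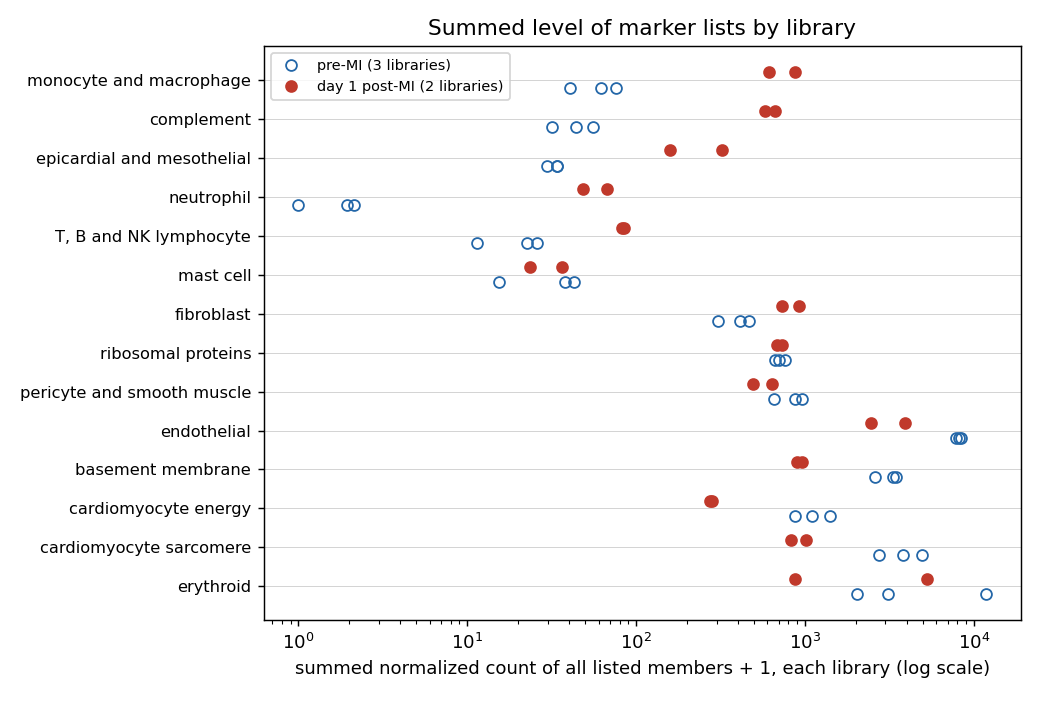
Summed normalized counts (plus 1, log scale) of all listed members of each marker list, in each library; open blue circles are pre-MI and filled red circles day 1 libraries. Monocyte and macrophage, complement and mesothelial sums are higher in both day 1 libraries, endothelial, basement membrane and cardiomyocyte sums are lower, and the ribosomal protein sum lies between 667 and 760 in all 5.

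Inflammatory cytokine genes were few among those tested. Il1b, the precursor of interleukin-1 beta, was at 41.1 and 18.4 at day 1 and at 0 before MI, at least 5.53-fold higher (log2 difference 4.84, adjusted p = 0.0255; the call was lost without pre-MI replicate 1). Il1rn, which encodes the antagonist of the interleukin-1 receptor, stood at 62.9 and 20.7 against 0, 1.79 and 4.54 (3.90). Per exon length it did not exceed the sensory receptor level in every day 1 library. Its call was lost when either day 1 library was left out. Csf1 (17.7 and 23 against 8.52, 7.17 and 5.68) did not pass. Of 15 listed cytokines 3 were tested and 2 rose, where 4.25% of all genes tested did. Il1b and Il1rn passed the filter only through their day 1 values. Among 10 tested of 29 cytokine receptor and signalling genes, Csf2ra and the tumour necrosis factor receptor Tnfrsf1b (27.4 and 32.1 against 4.73, 8.96 and 15.9) rose and none fell, against 4.25% and 11.6% of all genes tested. Without pre-MI replicate 1 neither passed, and without pre-MI replicate 2 or either day 1 library only Csf2ra did. Csf2ra and Tnfrsf1b passed the filter only through their day 1 values, Tnfrsf1b narrowly so with a pre-MI mean of 9.87. Stat3 was at 46.8 and 29.8 against 19.9, 19.7 and 20.4. Osmr, the oncostatin M receptor, was at 47.6 and 59.7 against 53.9, 41.2 and 42, and neither Stat3 nor Osmr passed.

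Small calcium-binding and membrane-repair genes rose in part. S100a4, a calcium-binding protein of motile cells and fibroblasts, stood at 69.4 and 65.4 against 0, 1.79 and 0 and rose by 5.60, and S100a6 stood at 40.3 and 36.7 against 0, 1.79 and 4.54 (3.99). S100a11 (25.8 and 34.4 against 7.57, 5.38 and 10.2), the galectin Lgals1 (25.8 and 27.5 against 5.68, 8.96 and 7.95) and the annexin Anxa2 (28.2 and 47.1 against 13.2, 19.7 and 9.09) rose by 1.86, 1.72 and 1.38. These 5 of 12 tested members (19 listed) rose and none fell, where 4.25% of all genes tested rose and 11.6% fell. Of the 5, all but Anxa2 passed the filter only through their day 1 values. Most of these calls were lost when either day 1 library was left out. Pid1, an adaptor with a phosphotyrosine-binding domain, was nearly identical in the day 1 libraries, 106 and 106, against 1.89, 3.59 and 1.14 before MI. Its log2 difference was 5.13 (SE 0.487, adjusted p = 1.37e-05).

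Mesothelial genes other than Wt1, which mark the surface layer of the heart, were higher at day 1 but few could be tested. Lrrn4, a leucine-rich repeat protein of mesothelium, stood at 21 and 49.4 against 0.946, 0 and 3.41 and rose by 4.02. Gpm6a, a membrane glycoprotein that mesothelial cells share with neurons, stood at 22.6 and 43.6 against 5.68, 1.79 and 0 (3.61). Without day 1 replicate 2 neither was called, nor was Gpm6a without replicate 1. Upk1b, a uroplakin, was at 12.1 and 41.3 against 0 before MI and missed the threshold (adjusted p = 0.051; 0.0434 under TMM scaling). Wt1, a transcription factor of epicardium, was at 18.5 and 28.7 against 20.8, 25.1 and 27.3 and did not pass. Lrrn4, Gpm6a and Upk1b passed the filter only through their day 1 values, so their differences describe these members and not the family. The 10 untested members of 14 included Msln (11.3 and 21.8 against 0, 0 and 1.14), Upk3b (9.68 and 31 against 1.89, 1.79 and 0) and Aldh1a2 (10.5 and 23 against 0, 0 and 0), each higher in both day 1 libraries, with replicate 2 the higher one. The summed level was 158 and 324 against 33.1, 28.7 and 32.9, so that day 1 replicate 2, which also had the higher sensory receptor reads, stood above replicate 1; the part of those reads was not tested.

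Few fibroblast genes were called. Of 10 tested of 23, the rises were S100a4 and Fn1, both also made by other cells, where 4.25% of all genes tested rose. Col1a2 (25 and 50.5 against 12.3, 12.5 and 22.7), Col3a1 (30.6 and 72.3 against 27.4, 34.1 and 23.9), Vim (108 and 99.9 against 51.1, 41.2 and 98.8) and Dcn (45.2 and 39 against 24.6, 44.8 and 19.3) did not pass with the authors' size factors, and Col1a1 was at 30.6 and 74.6 against 36.9, 53.8 and 64.7. Under TMM scaling 4 of the 10 rose, against 5.99% of all genes. Among 6 tested interstitial and scar collagens Col15a1, which bridges basement membrane and fibrils, fell (12.9 and 6.89 against 38.8, 21.5 and 26.1), where 11.6% of all genes tested fell. That call was lost under TMM scaling and when pre-MI replicate 1 or either day 1 library was left out.

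Cardiomyocyte genes, present before MI in cells labelled c-Kit(+), were several-fold lower at day 1. Actc1, cardiac actin, stood at 90.3 and 82.6 against 608, 669 and 729, a 7.73-fold difference of means, and fell by 2.93 on the log2 scale (SE 0.24, adjusted p = 5.85e-06). The main cardiac myosin Myh6 stood at 36.3 and 49.4 against 227, 439 and 327 and troponin T, Tnnt2, at 107 and 57.4 against 412, 801 and 630.4; they fell by 2.89 and 2.90. Tropomyosin Tpm1 (103 and 107 against 372, 753 and 599), troponin I gene Tnni3 (29 and 34.4 against 106, 237 and 151) and the light chain Myl3 (37.1 and 42.5 against 128, 283 and 174) fell by 2.38, 2.27 and 2.19. In each of these the highest day 1 value lay below the lowest pre-MI value, and pre-MI replicate 2 was the highest in all but Actc1. Titin, Ttn, was at 177 and 319 against 329, 705 and 441 and missed the threshold (adjusted p = 0.0564). Of 24 listed sarcomere genes 20 were tested; 13 fell and none rose, where 11.6% of all genes tested fell, with a median of -1.86 against -0.31 for all genes. Under TMM scaling 11 fell; without day 1 replicate 1 there were 8 and without replicate 2 only 5. The summed level was 826 and 1011 at day 1 against 2748, 4916 and 3788 before MI. Nexn, Actn2 and Csrp3, which fell, passed the filter only through their pre-MI values. A gene nearly absent at day 1 can pass it only by being high before MI. Counts of falls over tested members, here and in the lists below, therefore describe these members and not the families.

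Calcium cycling genes of muscle were mixed, and most tested energy genes fell. Pln, phospholamban, the brake on the calcium pump, stood at 35.5 and 31 against 219.5, 362 and 229 and fell by 2.95 (adjusted p = 1.45e-05), and the pump itself, Atp2a2, at 50.8 and 51.6 against 115, 139.8 and 139, fell by 1.34. Ryr2, the calcium release channel, was at 15.3 and 35.6 against 34.1, 34.1 and 56.8 and did not pass. Camk2d, a calcium-dependent kinase, was at 42.7 and 57.4 against 21.8, 39.4 and 19.3 and Asph, which also encodes the calcium store protein junctin, at 19.4 and 26.4 against 9.46, 14.3 and 9.09, both higher in each day 1 library and not past the threshold, though under TMM scaling Camk2d was called higher. Of 7 tested calcium genes 2 fell and none rose, where 11.6% of all genes tested fell and 4.25% rose. Mb, myoglobin, stood at 71 and 75.7 against 299, 504 and 370.3 and muscle creatine kinase, Ckm, at 4.84 and 4.59 against 30.3, 64.5 and 53.4; they fell by 2.37 and 3.07. Eno3, muscle enolase, was down to 1.61 and 3.44 from 31.2, 32.3 and 23.9, and the ADP/ATP carrier Slc25a4 to 52.4 and 73.5 from 218, 419.5 and 225. Of 13 tested energy genes 10 fell, against 11.6% of all genes tested; 10 fell also under TMM scaling, and 5 fell without day 1 replicate 2. Of these falls Ckm, Eno3, Smpx, Fabp3 and Ckmt2 passed the filter only through their pre-MI values. Ankrd1, a stress-responsive muscle gene, was at 42.7 and 27.5 against 15.1, 26.9 and 11.4, higher in both day 1 libraries but not past the threshold. Fhl2, a LIM-domain protein abundant in heart muscle, fell by 2.79 (7.26 and 4.59 against 42.6, 61 and 37.5). Chchd10, a protein of the mitochondrial intermembrane space, had the largest fall among named genes, 3.46, from 12.3, 25.1 and 28.4 to 0.807 and 1.15, which is 1 read in each day 1 library. Its call was lost without day 1 replicate 2, without pre-MI replicate 2 and with all 11 c-Kit libraries sharing the variance.

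Of 46 tested nuclear genes of the respiratory chain (53 listed) 14 fell, 32 were not called and none rose, where 11.6% of all genes tested fell. All 46 had a negative log2 difference, whereas 1284 of all 3740 genes had a positive one. Atp5a1, Atp5g3 and Atp5b, subunits of ATP synthase, stood at 82.3 and 75.7 against 240.3, 337 and 236, 59.7 and 59.7 against 152, 237 and 189 and 46 and 51.6 against 120.2, 161 and 126. Cox7b and Cox6c, subunits of cytochrome oxidase, stood at 8.87 and 9.18 against 28.4, 44.8 and 36.3 and 23.4 and 17.2 against 47.3, 89.6 and 63.6. The median was -0.98, and Cox7b passed the filter only through its pre-MI values. Under TMM scaling 9 fell (5.78% of all genes did), without day 1 replicate 1 there were 6 and without replicate 2 only 1. In the fatty acid oxidation list Ech1 and Hadha passed the filter only through their pre-MI values. Of its 14 tested genes, Ech1 (9.68 and 8.03 against 35, 32.3 and 39.8), Hadha (11.3 and 6.89 against 30.3, 19.7 and 60.2) and Acadl (19.4 and 11.5 against 28.4, 66.3 and 35.2) fell. Under TMM scaling 1 of the 14 did, a share near that of all genes tested (5.78%), and without day 1 replicate 2 none passed while with pre-MI replicate 1 or 3 left out there were 5.

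Endothelial genes were abundant before MI and lower at day 1. Aplnr, the apelin receptor of sprouting and venous endothelium, stood at 16.9 and 16.1 against 163, 138 and 159, a 9.29-fold difference of means, and fell by 3.14 (adjusted p = 1.36e-05). Sparcl1 stood at 89.5 and 56.2 against 433, 324 and 341, and VE-cadherin, Cdh5, the junction protein of endothelium, at 144 and 106 against 463, 393 and 478. Kdr, the main receptor for vascular endothelial growth factor, stood at 125 and 76.9 against 402, 323 and 324, and the orphan receptor of the angiopoietin family, Tie1, at 41.9 and 21.8 against 112, 100.4 and 105. Fabp4 (769 and 487 against 1891, 2062 and 1958) and Cd36 (547 and 266 against 1347, 1090.0 and 1044), which serve fatty acid uptake in capillaries, fell by 1.69 and 1.59. Replicate 1 was the higher day 1 library in each of these, and no day 1 value reached the pre-MI range. Of 39 tested members (40 listed) 22 fell and none rose, where 11.6% of all genes tested fell, with a median of -1.21. Under TMM scaling 15 fell, and without day 1 replicate 2 only 5 did. The summed level was 3893 and 2471 against 8408, 7800.4 and 8134. Not all members moved. Flt1, the other receptor for the same growth factor, was at 261 and 215 against 328, 292 and 289.7 (log2 difference -0.35, or -0.01 under TMM scaling), Vwf, von Willebrand factor, at 17.7 and 16.1 against 9.46, 16.1 and 11.4, and Ly6a at 113 and 71.2 against 78.5, 59.2 and 49.98; none of them passed. Pecam1 fell by 1.02 (150.0 and 111 against 251, 247 and 291) with the authors' size factors but not under TMM scaling (adjusted p = 0.0936).

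Collagen IV and its partners in the basement membrane fell together. Col4a1 stood at 80.7 and 37.9 against 612, 437 and 520.2, an 8.83-fold difference of means, and Col4a2 at 47.6 and 29.8 against 312, 265 and 273, 7.32-fold. They fell by 3.20 (SE 0.309) and 2.87 (SE 0.277), both with an adjusted p of 1.37e-05. The chains of these genes assemble with each other, and the genes lie head to head on chromosome 8, with annotated starts 21 bases apart on opposite strands (positions 11312826 and 11312805 of GRCm38.p6), so reads near the starts could belong to either where strand is not used. Nidogen, Nid1 (58.9 and 51.6 against 178, 181 and 206), the laminin chain Lamc1 (40.3 and 34.4 against 132, 111 and 172) and perlecan, Hspg2 (165 and 127 against 584, 351 and 655), which link collagen IV to laminin networks, fell by 1.75, 1.84 and 1.81. Lama2, the laminin chain of muscle, was at 11.3 and 18.4 against 11.4, 12.5 and 10.2 and Lama5 at 16.1 and 12.6 against 15.1, 21.5 and 7.95; neither passed. Nid2 also fell, and it passed the filter only through its pre-MI values. Of 13 tested members (19 listed) 10 fell and none rose, where 11.6% of all genes tested fell, with a median of -1.48. The count was 6 under TMM scaling and 4 without day 1 replicate 2.

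**Figure D5:**
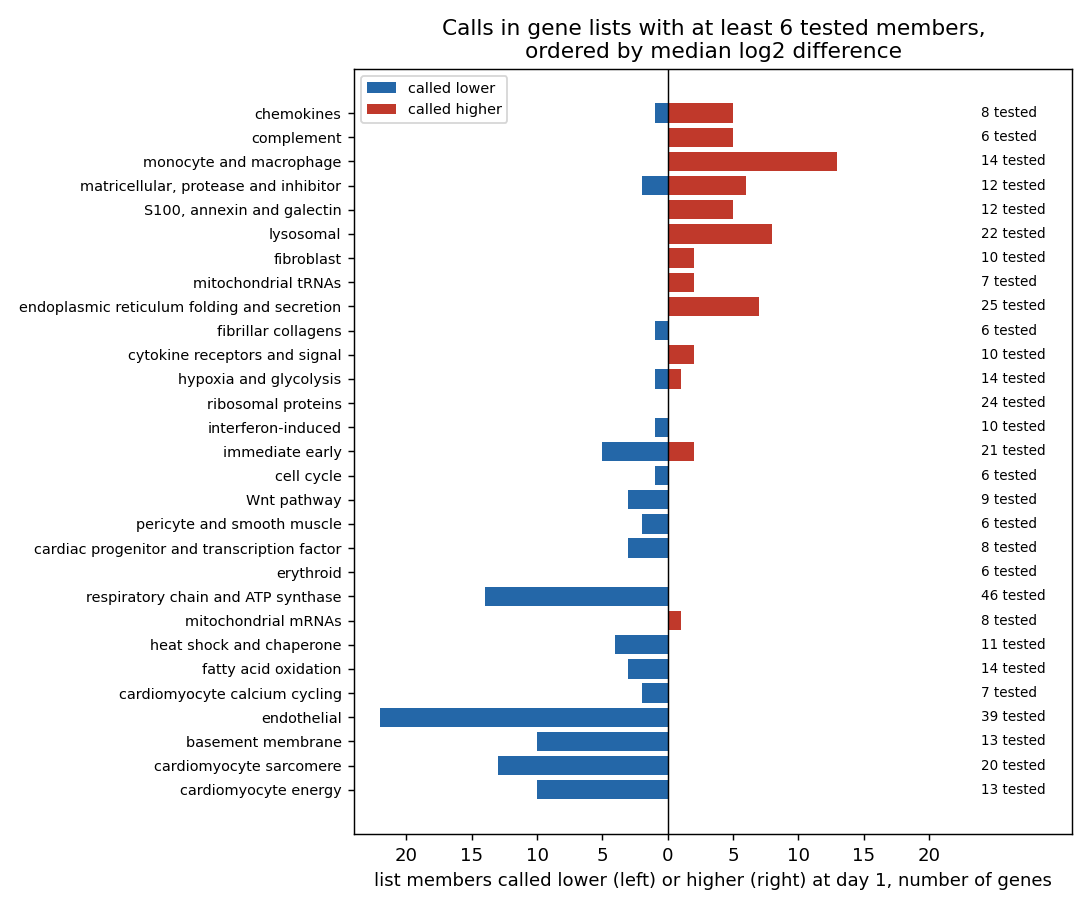
Number of tested members called lower (left, blue) and higher (right, red) at day 1 in each gene list with at least 6 tested members, ordered by the median log2 difference. Chemokine, complement and macrophage lists hold rises, endothelial (22), respiratory chain (14) and sarcomere (13) lists hold falls, and none of the 24 tested ribosomal protein genes was called.

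Among pericyte and smooth muscle genes, Acta2, smooth muscle actin, fell by 2.12 (4.03 and 3.44 against 14.2, 26.9 and 19.3) and desmin, Des, by 1.41 (17.7 and 18.4 against 41.6, 53.8 and 54.5), and with either day 1 library left out neither passed. Rgs5, a pericyte gene, was at 411 and 311 against 625, 399.8 and 571 and did not pass. Igf2, a fetal growth factor expressed from the paternal allele, fell by 3.38 (6.45 and 18.4 against 126, 102 and 149), 10.1-fold by means. The imprinted cell cycle inhibitor Cdkn1c stood at 3.23 and 1.15 against 23.7, 34.1 and 22.7 and fell by 3.18; this call was lost without day 1 replicate 2. Stk16, a membrane-bound kinase, fell by 2.77 (28.2 and 26.4 against 152, 276 and 169). The progenitor marker Cd34, shared with endothelium, fell by 1.38 (18.5 and 34.4 against 88, 71.7 and 48.8) with the authors' size factors and was not called under TMM scaling.

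The gene used for the label and genes of the Wnt pathway, which the study's treatment addresses, were mostly too low to test. Kit had 10 reads in all at day 1 and stood at 5.65 and 3.44 against 18, 7.17 and 5.68, below the filter. Kitl, which encodes its ligand, stem cell factor, stood at 44.4 and 31 against 129.6, 115 and 96.6 and fell by 1.58 (adjusted p = 0.00222). Of 8 tested progenitor and cardiac transcription factor genes Kitl, Srf (12.9 and 11.5 against 27.4, 34.1 and 32.9) and Mef2d (29.8 and 24.1 against 52, 46.6 and 73.8) fell, 1 of them under TMM scaling and none without day 1 replicate 2. Of all genes tested 11.6% fell, and under TMM scaling 5.78% did, so the TMM count of these 8 was near the general share. Gata4 (2.42 and 4.59 against 1.89, 1.79 and 2.27), Sfrp2 (0 and 1.15 against 0, 7.17 and 0) and Axin2 (4.03 and 4.59 against 0, 0 and 0), a common readout of Wnt signalling, were below the filter. Of 36 listed Wnt pathway genes 9 were tested. Beta-catenin, Ctnnb1, stood at 135 and 116 against 553, 473 and 315 and fell by 1.79, and Fzd4 (12.9 and 10.3 against 30.3, 34.1 and 35.2) and Dvl2 (15.3 and 10.3 against 21.8, 41.2 and 34.1) fell, while Gsk3b (88.7 and 102 against 195, 124 and 149) and Apc (41.9 and 40.2 against 71.9, 61 and 63.6) did not pass. The 3 falls of 9 stand beside 11.6% of all genes tested. Under TMM scaling 1 of the 9 fell, near the 5.78% of all genes, and without day 1 replicate 2 none did.

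Immediate early genes, which respond to stress and to handling of cells within minutes, split in direction. Cebpb, a transcription factor of inflammatory genes, stood at 55.6 and 103 against 6.62, 3.59 and 13.6 and rose by 3.26, and the AP-1 member Fosl2 at 48.4 and 47.1 against 20.8, 12.5 and 23.9 rose by 1.33. Sgk1, a kinase induced by corticosteroids, stood at 47.6 and 26.4 against 193, 224 and 235 and fell by 2.58 (adjusted p = 5.44e-05). Jun (74.2 and 68.9 against 116, 167 and 274), Egr1 (176 and 91.8 against 198, 271 and 368), Dusp1 (193 and 94.1 against 301, 278 and 454) and Klf4 (41.9 and 18.4 against 57.7, 68.1 and 120.4) also fell, whereas Fos (133 and 56.2 against 144, 156 and 211), Junb (70.2 and 64.3 against 26.5, 25.1 and 61.3) and Klf2 (48.4 and 73.5 against 105, 104 and 122) did not pass. Of 21 tested members 2 rose and 5 fell, where 4.25% of all genes tested rose and 11.6% fell. Under TMM scaling 3 rose and 1 fell, against 5.99% and 5.78% of all genes, so the falls were then near the general share. Most of these calls were lost when day 1 replicate 2 was left out. Hmox1, heme oxygenase, rose by 2.12 (34.7 and 42.5 against 10.4, 10.8 and 4.54), a call lost when either day 1 library was left out, and the hypoxia-inducible factor of endothelium, Epas1, fell by 0.81 (468 and 390.2 against 790.1, 672 and 799.7), a call lost under TMM scaling and when any library except day 1 replicate 1 was left out. The other 12 of 14 tested hypoxia and glycolysis genes, Hif1a (30.6 and 11.5 against 18.9, 5.38 and 21.6) and Ldha (37.1 and 20.7 against 29.3, 48.4 and 47.7) among them, did not pass. Inducible heat shock gene Hspa1b was down to 4.03 and 1.15 from 19.9, 14.3 and 27.3, and Cryab, Dnaja1 and Bag3 fell as well; under TMM scaling 2 of the 11 tested chaperones fell and 2 rose, and without day 1 replicate 2 none passed. Under TMM scaling 5.78% of all genes fell and 5.99% rose. Of 10 tested interferon-induced genes only Rsad2, an antiviral enzyme, was called, and it fell by 1.74 (27.4 and 24.1 against 89.9, 80.7 and 94.3). That share of falls is near the 11.6% of all genes tested.

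Among ribosomal protein genes none of 24 tested (51 listed) was called. Their median log2 difference was 0.08, and their summed level was 728 and 681 at day 1 against 667, 706 and 759.9 before MI. Of 8 mitochondrially encoded mRNAs 1 was called and it rose. That gene, mt-Nd3, a subunit of complex I, stood at 33.9 and 47.1 against 0, 1.79 and 0 (log2 difference 4.86, adjusted p = 0.00357). It had 1 read in all before MI and passed the filter only through its day 1 values. The other 7 stood between 14266 and 174229 in the 5 libraries and were lower in both day 1 libraries without passing. Whether reads of mt-Nd3 were counted as fully as those of the other 7 was not tested. Among 7 tested mitochondrial tRNA genes, mt-Tm (65.3 and 87.2 against 17, 39.4 and 23.9) and mt-Tc (29.8 and 71.2 against 12.3, 26.9 and 10.2) rose, where 4.25% of all genes tested did. Under TMM scaling 4 rose, against 5.99% of all genes. The calls of mt-Tm and mt-Tc were lost when either day 1 library was left out.

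The 159 rises also held genes with no known place in heart or immune cells. Predicted or clone-derived symbols made up 19 of them, and these 19 together took 104054 and 65616 reads in the day 1 libraries, which is 34.0% and 31.7% of the reads outside mitochondrial genes. Before MI they took 1739, 873 and 8653 reads, or 0.915%, 0.892% and 4.78%. The predicted genes Gm10800 and Gm10801 on chromosome 2 stood at 57417 and 49576 against 1089, 1051 and 6822 and at 16019.7 and 14885 against 298, 258 and 1781, and Gm10717 on chromosome 9 at 2486 and 2567 against 53.9, 39.4 and 278. They were picked after their values were seen. Predicted genes numbered in series, as on chromosome 9, may be near-identical copies, so the split of reads among them is uncertain. Among the rises 51 did not lie above the sensory receptor level per exon length in both day 1 libraries, and 108 (2.89% of tested genes) did. The 51 had a median gene length of 143.9 kb, against 15.1 kb for the 108 and 38.0 kb for all tested genes; the split divides by exon length (medians of 14.0 and 3.10 kb), so it places genes with long exons among the 51 by construction. Zfhx4, a zinc finger homeobox gene at 16.1 and 81.5 against 0 before MI, is one of the 51, with Ccr2, Mrc1, Msr1, Ptprc and Vcan. The part of stray reads in these 51 rises was not tested.

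Levels at day 12 are set beside those of day 1 for a few genes, with no test. Ccl9 stood at 17.1, 58.4 and 7.48 in day 12 vehicle replicates 1 to 3 and at 9.15, 14.4 and 20.0 in day 12 Sfrp2 replicates 1 to 3. Spp1 stood at 13.2, 20.7 and 1.87 and at 3.52, 7.53 and 6.95 in the same order. All 12 of these values lay below both day 1 values of their gene. C3 was at 74, 596 and 9.35 with vehicle and at 109, 92.9 and 103 with Sfrp2, and vehicle replicate 2 exceeded both day 1 libraries. Among falls, Col4a1 was at 67.7, 136 and 9.35 and 68.3, 28.2 and 71.1, and Aplnr at 17.9, 53 and 3.74 and 16.9, 7.53 and 17.2. For both genes every day 12 library stayed below every pre-MI library, as both day 1 libraries did. Day 12 vehicle replicate 3 held only 200641 reads, 2.01% of them of mitochondrial rRNAs, and 677 reads of sensory receptor genes. The other day 12 libraries held 1075443 to 2683841 reads, with 52.9% to 79.1% of mitochondrial rRNAs. The part of depth and makeup in the low values of vehicle replicate 3 was not tested. The single cardiomyocyte library had 4.43 for Ccl9, 0 for Spp1, 8.86 for C3 and 190.4 for Col4a1. It held 190259 reads, with 1.08% in mitochondrial rRNAs. Muscle genes were uneven in it, with Actc1 and Myh6 at 4.43 and Mb at 0, but Tnnt2 at 104. Its values may therefore not be those of cardiomyocytes. Comparisons of day 1 and of day 12 with pre-MI share the same 3 pre-MI libraries, so no count of genes common to them is given.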

How the data were processed

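Per the labels' protocols, RNA of the isolated cells was turned into cDNA and amplified with the Ovation Pico WTA V2 kit. According to the labels and the submitters' processing notes, Trim Galore and Cutadapt trimmed the reads (minimum length 20 nt), STAR placed them on GRCm38 with unique placements retained, HTSeq counted them per gene, genes below 10 reads in every library were dropped, and DESeq2 scaled the counts; no tool version was found in the sources used here. The deposited values are a signal: counts per gene over a library's size factor, as the file headers and the values show. The authors' fold changes and p-values were not used.

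Dividing by each library's step gave whole reads for 100% of values (tolerance 0.001); totals cover listed genes only, and reads state counting error only. The main test was limma 3.58.1 (R 4.3.3), trend option, on log2(value + 1) of the 5 libraries, over genes with a mean of at least 10, Benjamini-Hochberg adjusted at 0.05. This scale understates changes of low genes. Folds against a group without reads were set against 3 reads in the pre-MI library where a read counts most. Recovered reads went through edgeR 4.0.16 and DESeq2 1.42.0. Without one day 1 library, the other is assumed to vary like the pre-MI libraries. The sensory receptor level is the 95th percentile of 99 such genes with an exon length, as value per exon kb. The fit was tested on simulated data. Named genes are the 15 rises and 15 falls with the largest log2 difference, no overlap and no predicted symbol, in each list up to 8 tested members with the smallest p and 3 at the highest level, and fixed names; others are stated as picked after their values were seen or as untested. Comparison, lists and tests were chosen with earlier results of these data known.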

Additional observations from a re-analysis of the deposited data

How the results depend on the processing

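Without the filter on low values 3235 rises, 403 falls and a median log2 difference of 0.70 resulted, and 195 rises lay above the sensory receptor level. Among the 498 genes with a mean of at least 50 there were 31 rises, 224 falls, a median of -0.74 and 30 rises above that level; fewer genes were tested. Median centring gave 273 falls and a median of -0.10, TMM 216 falls and 0.02, edgeR 268 rises, 207 falls and -0.0006, DESeq2 105 falls and 0.0036 (218 adjusted p-values were NA), limma without a trend 238 falls, and a pseudocount of 5 a median of -0.26. With all 11 c-Kit libraries sharing the variance 66 rises and 27 falls passed, and 42 rises lay above the sensory receptor level; this fit took its spread from day 12 libraries too. Leaving out 1 library at a time gave 32 to 205 rises, 43 to 452 falls, medians of -0.33 to -0.26 and 26 to 133 rises above the sensory receptor level; the lowest counts were without day 1 replicate 2. The replicate block gave 217 rises and 580 falls. Replicate numbers do not pair the samples: deviations of same-numbered libraries correlated at 0.022 and 0.046. Of 159 named genes none changed sign in a call; 90 differed from the reported call by falling short with all 11 libraries and 75 without day 1 replicate 2. The causes of the other shifts were not tested. Depth limits the low genes, since 3 reads in the shallowest pre-MI library equal 5.38 normalized counts.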

Other observations

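Gene groups picked after values were seen described further rises at day 1. Of 25 tested genes for folding and secretion in the endoplasmic reticulum (31 listed), 7 rose and none fell, where 4.25% of all genes tested rose, with a median log2 difference of 0.59 and 23 of 25 above 0, against 1284 of all 3740 genes tested. Hyou1, a chaperone of that compartment, stood at 35.5 and 44.8 against 9.46, 8.96 and 4.54 normalized counts and rose by 2.29 (limma adjusted p = 0.00263). The disulfide isomerases Pdia6 (27.4 and 50.5 against 11.4, 1.79 and 10.2) and Pdia4 (30.6 and 39 against 12.3, 16.1 and 7.95), Rpn1 of the glycosylation complex (72.6 and 132 against 32.2, 46.6 and 37.5) and calreticulin, Calr (79 and 132 against 43.5, 39.4 and 64.7), rose as well. Their cytosolic counterparts in the heat shock list were not called higher. Hyou1 and Pdia6 passed the filter only through their day 1 values. Without day 1 replicate 2 none of the 7 passed, and without replicate 1 there were 2.

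Of 22 tested lysosomal genes (31 listed) 8 rose and none fell, where 4.25% of all genes tested rose, with a median of 0.68. Ctsc, a cathepsin that activates serine proteases of leukocytes, stood at 61.3 and 40.2 against 5.68, 3.59 and 5.68 and rose by 3.10. The cysteine protease Lgmn (25 and 33.3 against 3.78, 5.38 and 2.27), the cathepsin inhibitor Cstb (29.8 and 33.3 against 1.89, 7.17 and 1.14) and Ctsb (75.8 and 101 against 47.3, 34.1 and 46.6) also rose. Laptm5 and Ctss are shared with the macrophage list. Like Gm2a, Cstb, Lgmn and Ctsc, they passed the filter only through their day 1 values. The count of lysosomal rises over tested genes therefore describes these members and not the family. With day 1 replicate 1 left out 3 passed, and with replicate 2 left out 2 did. Ctsd (68.6 and 56.2 against 40.7, 39.4 and 12.5) and Grn (57.3 and 115 against 42.6, 26.9 and 49.98) did not pass.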
